A study of Citrus sinensis with 30 samples.

Results

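Juice sacs of ‘Tarocco’ blood orange (TBO) were compared with juice sacs of ‘Bingtangcheng’ sweet orange (BTSO) at 90 days after storage (DAS), the last day of the experiment. Both are varieties of Citrus sinensis, bought as mature fruit from one experimental station, bagged singly and kept in a cool chamber, and juice sacs were taken from 5 fruit in each group with 3 replicates. The 6 libraries, 3 biological replicates of each variety, were chosen by variety and storage day from 30 libraries, which cover the same varieties on 5 days of storage. RNA-seq gave an FPKM value, scaled to the size of the library and the length of the transcript, for 24179 genes. Of these, 16578 had 1 FPKM or more in no fewer than 3 of the 30 libraries and were tested with limma on log2(FPKM + 1). A gene was called where the adjusted p-value over all genes tested was under 0.05 and the log2 difference, TBO minus BTSO, was over 1 in either direction. The pseudocount of 1 understates the difference of weakly expressed genes, so the values of each library are given beside it. The trees of each variety and their growing conditions are not given, so that variety and orchard cannot be told apart, and the p-values measure the spread between the replicate samples.

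A juice sac is a stalked vesicle whose large cells store citrate, sugars and, in blood oranges, red anthocyanins in the vacuole. Anthocyanins are built from phenylalanine through the phenylpropanoid and flavonoid pathways, under the control of complexes of MYB, bHLH and WD40 proteins, and they are carried to the vacuole with the help of glutathione S-transferases (GST). Acidity depends on proton pumps of the vacuole, among them the P-type pumps of the PH family known from petunia, and on enzymes that make or use citrate. Blood oranges are known to redden further in cold storage.

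At 90 DAS, 980 genes (5.91% of those tested) were higher and 810 (4.89%) lower in TBO fruit than in BTSO fruit, together 1790 (10.8%) of those tested. The median log2 difference was 1.40 among the higher and -1.37 among the lower genes, and over all genes tested it was 0.08. The extremes were 8.10 and -4.58, and 58 called genes lay above 3 and 22 below -3. The 3 TBO libraries did not overlap with the 3 BTSO libraries in 1761 of the called genes, and in 9919 (59.8%) of all genes tested. The balance of the directions depended on the scaling. With upper-quartile scaling 770 genes were higher and 950 lower, with quantile normalization 840 and 961, and with edgeR on the estimated counts 1158 and 1485. Estimated counts summed to between 64101715 and 71443367 in the TBO libraries and between 55922797 and 68198074 in the BTSO libraries. Across genes, libraries of TBO correlated with r of 0.981 to 0.984, libraries of BTSO with 0.970 to 0.982, and libraries of different varieties with 0.888 to 0.925. The libraries of a variety were not alike in the called genes. Of the 980 higher genes, 591 had their lowest TBO value in replicate 2, and of the 810 lower genes, 545 had their lowest BTSO value in replicate 1. Without TBO replicate 2 the number of called genes was 1784, and without BTSO replicate 1 it was 2092. In bulk tissue, fewer cells of a type and less RNA per cell cannot be told apart.

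The entry into the phenylpropanoid pathway was higher in TBO fruit at its first enzyme. All 5 genes of phenylalanine ammonia-lyase (PAL), which turns phenylalanine into cinnamate, were called higher. Of the 20 genes tested for PAL, cinnamate 4-hydroxylase (C4H) and 4-coumarate-CoA ligase (4CL), 7 were higher and 0 lower, against 5.91% higher and 4.89% lower over all genes, and their median log2 difference was 0.43, against 0.08. The strongest was PAL (Cs8g16290), with 80.3, 70.4 and 78.9 FPKM in TBO fruit, against 1.02, 1.12 and 1.62 FPKM in BTSO fruit (log2 difference 5.11, SE 0.33, limma adjusted p = 1.71e-11). All of its TBO values lay far above the BTSO values. PAL (Cs6g11950) had 24.1, 18.6 and 25.1 FPKM in TBO fruit, against 0.128, 0.334 and 0.530 FPKM in BTSO fruit (log2 difference 4.15, SE 0.38, limma adjusted p = 6.46e-09), again without overlap, as in 59.8% of all genes tested. The calls of the other 3 PAL genes were less firm, since each was lost when a single library was left out. Cs6g11940 (log2 difference 1.44) was lost without BTSO replicate 1 (0.93), Cs7g24940 (1.04) without BTSO replicate 1 (1.04, adjusted p = 0.0622), BTSO replicate 2 (0.91), TBO replicate 1 (0.91) or TBO replicate 3 (1.01, adjusted p = 0.0781), and Cs7g25030 (1.05) without TBO replicate 1 (0.94), all in limma. With quantile normalization 4 of the 20 genes were higher.

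The next enzymes differed less. Neither of the 2 C4H genes was called. The abundant C4H (Cs1g08620) had 114, 115 and 109 FPKM in TBO fruit, against 137, 135 and 145 FPKM in BTSO fruit (log2 difference -0.30, SE 0.11, limma adjusted p = 0.0217), slightly lower in every TBO library. Of 13 genes of 4CL, 2 were higher, among them Cs5g24900, with 6.56, 4.15 and 5.61 FPKM in TBO fruit, against 0.159, 0.307 and 0.315 FPKM in BTSO fruit (log2 difference 2.34, SE 0.22, limma adjusted p = 7.93e-09). Upstream of PAL, a gene of phospho-2-dehydro-3-deoxyheptonate aldolase (Cs3g18030), the first enzyme of the shikimate pathway that supplies phenylalanine, had 226, 181 and 219.8 FPKM in TBO fruit, against 9.29, 7.95 and 7.91 FPKM in BTSO fruit (log2 difference 4.48, SE 0.25, limma adjusted p = 1.81e-12). All 3 TBO libraries stood far above the BTSO libraries.

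Of 27 genes tested for the flavonoid and anthocyanin steps, 14 were higher and 1 was lower in TBO fruit, with a median log2 difference of 1.40, against 5.91%, 4.89% and 0.08 over all genes. Each step from chalcone synthase (CHS) to anthocyanidin synthase (ANS) had at least 1 called gene, and the glucosylation step had none that was higher. In 12 of the 14, TBO replicate 2 was the lowest TBO library. Without it 15 members were higher and 2 lower, and with DESeq2 on the estimated counts 11 were higher and 2 lower. The study selected its structural genes in these samples, so that CHI, F3H, F3’H and GST are not independent evidence of the direction.

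CHS makes the chalcone backbone. CHS1 (Cs9g11190) was among the most abundant transcripts of TBO fruit, with 1207, 1213 and 1432 FPKM in TBO fruit, against 4.003, 2.07 and 5.89 FPKM in BTSO fruit (log2 difference 8.08, SE 0.35, limma adjusted p = 1.60e-14). The ratio of the mean FPKM was 322. The other 4 called CHS genes were weak. CHS (Cs2g14720) had 11.9, 7.98 and 10.1 FPKM in TBO fruit, against 0, 0.0928 and 0.0582 FPKM in BTSO fruit (log2 difference 3.38, SE 0.31, limma adjusted p = 6.80e-09). The 3 genes annotated as CHS 2-like, Cs3g20680, orange1.1t05430 and Cs3g20640, lay between 0.790 and 5.46 FPKM in TBO fruit and between 0 and 0.0812 FPKM in BTSO fruit. Reads of such near-identical copies may have been split between them, so they are uncertain one by one, and DESeq2 on the estimated counts called none of these 3.

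Chalcone isomerase (CHI) closes the ring of the chalcone. Both CHI genes were low and higher in TBO fruit. CHI (Cs7g29780) had 3.26, 3.64 and 3.38 FPKM in TBO fruit, against 0.7498, 0.785 and 0.496 FPKM in BTSO fruit (log2 difference 1.40, SE 0.15, limma adjusted p = 8.74e-08), and CHI (Cs7g28130) had 4.12, 3.80 and 5.16 FPKM in TBO fruit, against 0.763, 0.708 and 0.900 FPKM in BTSO fruit (log2 difference 1.57, SE 0.20, limma adjusted p = 8.39e-07). In both, the libraries of the varieties did not overlap. Cs7g20780, for which the primers of the study carry the name CHI-like, is in the deposited table a hypothetical protein with the gene ontology term of transmembrane transport. It had 7.07, 5.80 and 8.58 FPKM in TBO fruit, against 0.601, 0.219 and 0.294 FPKM in BTSO fruit (log2 difference 2.57, SE 0.18, limma adjusted p = 4.97e-11).

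Flavanone 3-hydroxylase (F3H) and flavonoid 3’-hydroxylase (F3’H) add hydroxyl groups to the flavonoid skeleton. F3H (Cs1g25280) had 908, 765 and 842 FPKM in TBO fruit, against 5.93, 7.48 and 5.79 FPKM in BTSO fruit (log2 difference 6.83, SE 0.20, limma adjusted p = 1.24e-17), a ratio of the means of 131. The 3 TBO libraries were close to each other and far above the BTSO libraries. The second gene that the study calls F3H (Cs2g04110), annotated as protein SRG1, had 85.2, 61.1 and 86.3 FPKM in TBO fruit, against 26.6, 8.97 and 14.1 FPKM in BTSO fruit (log2 difference 2.27, SE 0.48, limma adjusted p = 3.86e-04), with BTSO replicate 1 above the other BTSO libraries. F3’H (Cs5g11730) had 62.7, 50.4 and 67.7 FPKM in TBO fruit, against 1.35, 1.87 and 1.63 FPKM in BTSO fruit (log2 difference 4.54, SE 0.20, limma adjusted p = 2.43e-14). Its relatives were not alike. Cs5g08200 was also higher (log2 difference 1.64), while the abundant F3’H-like gene orange1.1t04984 had 81.9, 87.2 and 68.1 FPKM in TBO fruit, against 101, 76.4 and 59.0 FPKM in BTSO fruit (log2 difference 0.03, SE 0.16, limma adjusted p = 0.883) with overlapping varieties. Flavonoid 3’,5’-hydroxylase 2-like (Cs2g29510), of the enzyme type that leads to blue delphinidin pigments, had 4.25, 2.82 and 3.83 FPKM in TBO fruit and was listed at 0 in all BTSO libraries (log2 difference 2.20, SE 0.21, limma adjusted p = 1.37e-08).

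The late steps differed strongly as well. Dihydroflavonol 4-reductase (DFR, Cs3g25090), which makes leucoanthocyanidins, had 136, 97.1 and 145 FPKM in TBO fruit, against 0.176, 0 and 0.0711 FPKM in BTSO fruit (log2 difference 6.86, SE 0.26, limma adjusted p = 1.73e-15). ANS (Cs5g09970), which makes the coloured anthocyanidins, had 148, 101 and 163 FPKM in TBO fruit, against 1.77, 2.08 and 1.48 FPKM in BTSO fruit (log2 difference 5.62, SE 0.31, limma adjusted p = 1.13e-12). In each of them replicate 2 was the lowest TBO library, and all BTSO libraries were at or near the bottom of the range. Anthocyanidin reductase (ANR, Cs2g07290), which leads from anthocyanidins to the colourless flavan-3-ols, had 6.35, 4.86 and 5.95 FPKM in TBO fruit and was listed at 0 in the BTSO libraries (log2 difference 2.74, SE 0.19, limma adjusted p = 7.88e-11).

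The last step and the transport step were unlike each other. Of 4 genes annotated as anthocyanidin 3-O-glucosyltransferase, which stabilises the pigment with a sugar, 1 was lower and 0 were higher. Over all genes tested, 4.89% were lower and 5.91% higher. The place of these 4 genes in this step rests on the annotation, and whether they act on anthocyanidins was not tested. The lower one carries the KEGG entry K12356, that of a coniferyl alcohol glucosyltransferase. The lower one, orange1.1t04895, had 3.78, 3.27 and 4.07 FPKM in TBO fruit, against 7.70, 18.4 and 17.4 FPKM in BTSO fruit (log2 difference -1.64, SE 0.34, limma adjusted p = 3.05e-04). The most abundant, Cs6g11490, had 50.2, 49.7 and 57.1 FPKM in TBO fruit, against 45.4, 63.7 and 70.6 FPKM in BTSO fruit (log2 difference -0.17, SE 0.17, limma adjusted p = 0.415), with overlapping varieties. Cs6g11510 differed within TBO, with 1.16, 16.2 and 14.7 FPKM in TBO fruit, against 23.5, 33.5 and 38.3 FPKM in BTSO fruit (log2 difference -1.94, SE 0.88, limma adjusted p = 0.0657), and TBO replicate 1 stood apart from the others. It was called lower without TBO replicate 2 (-2.46) or TBO replicate 3 (-2.40). GST (Cs6g15900), by contrast, had the largest log2 difference of all genes tested. It had 454, 319 and 479 FPKM in TBO fruit, against 0.423, 0.407 and 0.695 FPKM in BTSO fruit (log2 difference 8.10, SE 0.32, limma adjusted p = 3.03e-15), and the ratio of the mean FPKM was 821.

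**Figure D1:**
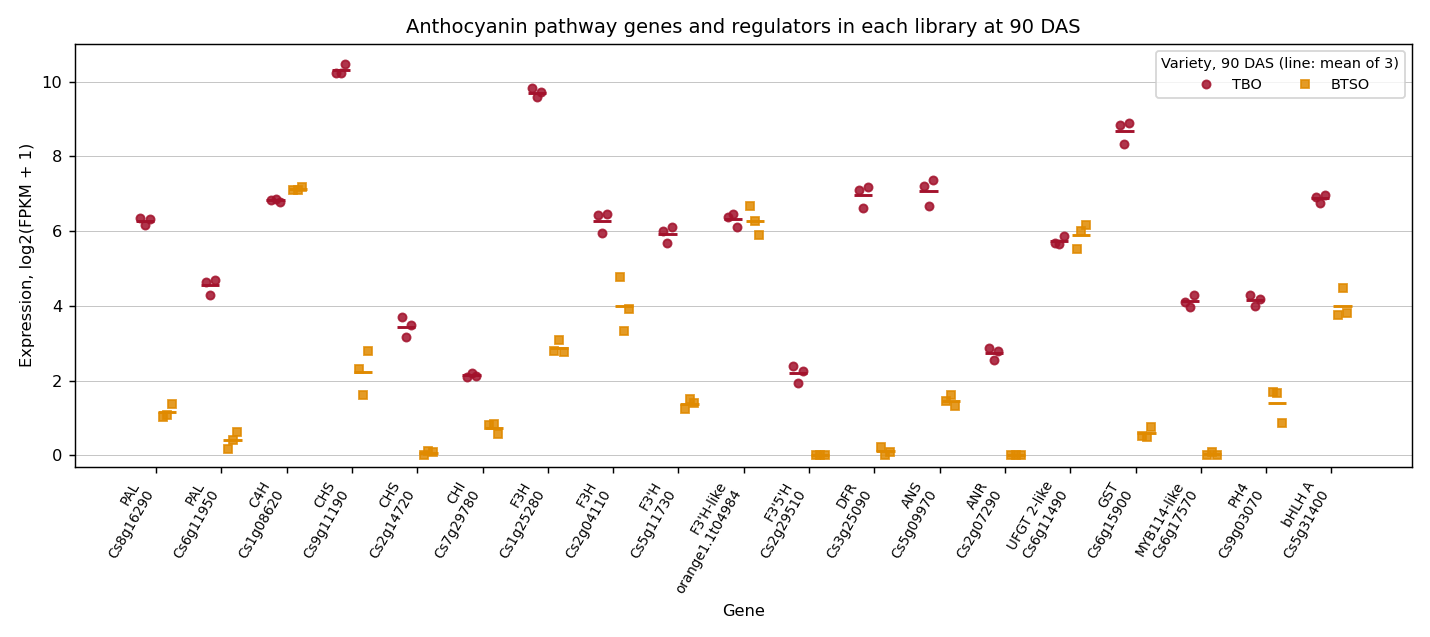
Expression of 19 genes of the anthocyanin pathway and its regulators in each library at 90 DAS, as log2(FPKM + 1), with TBO libraries as circles, BTSO libraries as squares and lines for the means of 3. CHS (Cs9g11190), F3H (Cs1g25280) and GST are the highest in TBO fruit and near the bottom in BTSO fruit, while C4H, the F3’H-like gene and the glucosyltransferase lie at similar heights in both varieties.

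Regulators of pigment and acidity were called in both directions. Of 50 MYB, bHLH and WD40 genes tested, 4 were higher and 2 lower in TBO fruit, or 8% and 4%, near the 5.91% and 4.89% of all genes, with a median log2 difference of 0.22. With edgeR 6 were higher and 6 lower, and with DESeq2 8 and 6. The MYB114-like gene (Cs6g17570), from the branch of MYB activators of anthocyanin synthesis, had 16.3, 14.8 and 18.7 FPKM in TBO fruit, against 0, 0.0639 and 0 FPKM in BTSO fruit (log2 difference 4.10, SE 0.34, limma adjusted p = 1.49e-09). It was listed at 0 in 2 of the 3 BTSO libraries, so that its fold cannot be given. Basic helix-loop-helix protein A (Cs5g31400), related to the bHLH partner of such MYB proteins, had 119, 107 and 125 FPKM in TBO fruit, against 12.4, 21.3 and 12.9 FPKM in BTSO fruit (log2 difference 2.87, SE 0.17, limma adjusted p = 5.56e-12). No TBO library came near a BTSO library. PH4 (Cs9g03070), annotated as MYB34 and named for the petunia regulator of vacuolar acidity, had 18.6, 15.0 and 17.3 FPKM in TBO fruit, against 2.25, 2.18 and 0.822 FPKM in BTSO fruit (log2 difference 2.75, SE 0.23, limma adjusted p = 1.60e-09).

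The opposite direction was seen in myb-related protein Myb4 (Cs9g02640), of a MYB type that represses phenylpropanoid genes in Arabidopsis. It had 1.26, 1.08 and 1.38 FPKM in TBO fruit, against 5.84, 10.1 and 10.6 FPKM in BTSO fruit (log2 difference -2.10, SE 0.25, limma adjusted p = 2.66e-07), and no TBO library reached the lowest BTSO library. The other 4 transcription regulators that the study chose as hubs in these samples were all called higher, with smaller differences. They were CHR4 (Cs2g11400, 1.32), a chromatin remodelling protein, FAR1 (Cs2g11450, 1.34), of a family known from far-red light signalling, the CCCH zinc finger protein ATC3H64 (Cs4g14220, 1.22), and the histone acetyltransferase HAC12 (Cs6g19010, 1.16). FAR1 had 13.98, 15.0 and 14.1 FPKM in TBO fruit, against 5.11, 4.58 and 5.62 FPKM in BTSO fruit (limma adjusted p = 2.28e-10). Their selection in the study used these libraries, so their direction is not independent evidence.

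Proton pumps of the P-type included genes that were higher in TBO fruit, and the multisubunit vacuolar pump had no called gene. Of 14 P-type genes tested 4 were higher and 0 lower. No call in either direction was made among 19 genes of the V-type proton ATPase or 2 vacuolar pyrophosphatases. Over all 35 pump genes tested, 11.4% were higher and 0 lower, beside 5.91% and 4.89% of all genes. PH8 (Cs1g16150), annotated as plasma membrane-type ATPase 10 and named for the petunia pump that acidifies the vacuole, had 41.0, 30.1 and 47.6 FPKM in TBO fruit, against 3.98, 7.28 and 3.40 FPKM in BTSO fruit (log2 difference 2.82, SE 0.25, limma adjusted p = 4.89e-09). The study selected it in these samples, and all TBO libraries lay above the BTSO libraries. The merged locus of an ATPase 4-like gene (Cs6g03430, Cs6g03440 and Cs6g03445) had 14.5, 18.3 and 29.0 FPKM in TBO fruit, against 4.09, 2.98 and 2.79 FPKM in BTSO fruit (log2 difference 2.29, SE 0.19, limma adjusted p = 1.93e-09). The more abundant P-type genes Cs4g03700 (log2 difference 1.17) and Cs4g04300 (1.098) passed the limit narrowly, and with upper-quartile scaling Cs4g04300 was at 0.98 and not called. The V-type subunit B 2 (Cs8g02310) had 213, 219 and 215 FPKM in TBO fruit, against 231, 215 and 229 FPKM in BTSO fruit (log2 difference -0.06, SE 0.07, limma adjusted p = 0.459), and the pyrophosphatase orange1.1t01399 had 127, 142 and 139 FPKM in TBO fruit, against 112, 104 and 114 FPKM in BTSO fruit (log2 difference 0.30, SE 0.08, limma adjusted p = 0.00298). The first overlapped between the varieties and the second was slightly higher in TBO fruit without overlap.

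Among enzymes around citrate, 3 genes of 2 enzymes were called. Of 45 genes tested, 3 were higher and 0 lower, or 6.67% higher, near the 5.91% of all genes, and the median log2 difference was -0.07, against 0.08 over all genes. Phosphoenolpyruvate carboxykinase (PEPCK) converts oxaloacetate to phosphoenolpyruvate and so links organic acids to sugar synthesis. PEPCK1 (Cs3g16700) had 819, 829 and 798 FPKM in TBO fruit, against 278, 364 and 292 FPKM in BTSO fruit (log2 difference 1.40, SE 0.13, limma adjusted p = 1.16e-08), and PEPCK2 (Cs1g20920) had 135, 137 and 146 FPKM in TBO fruit, against 42.2, 18.6 and 23.8 FPKM in BTSO fruit (log2 difference 2.35, SE 0.26, limma adjusted p = 1.19e-07). Both were selected by the study in these samples, and in both the varieties were separate. A beta chain of ATP-citrate lyase (Cs9g02230), which cleaves citrate in the cytosol, had 80.0, 84.9 and 88.9 FPKM in TBO fruit, against 12.03, 14.8 and 14.4 FPKM in BTSO fruit (log2 difference 2.54, SE 0.18, limma adjusted p = 1.45e-10). The other 2 genes of this enzyme were not called.

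Citrate synthase (5 genes tested), aconitase (3), isocitrate dehydrogenase (7), phosphoenolpyruvate carboxylase (5) and malate dehydrogenase (6) had no called gene. The most abundant isocitrate dehydrogenase (orange1.1t04187) had 330.1, 301 and 343 FPKM in TBO fruit, against 239, 231 and 268 FPKM in BTSO fruit (log2 difference 0.40, SE 0.09, limma adjusted p = 4.57e-04), a difference beyond the spread of the libraries but under the limit. The GABA shunt, which uses glutamate derived from citrate, and glutamine synthetase together had no called member among 6. The abundant glutamate decarboxylase of the shunt (Cs5g16440) had 197, 185 and 184 FPKM in TBO fruit, against 305, 359 and 446 FPKM in BTSO fruit (log2 difference -0.95, SE 0.13, limma adjusted p = 1.63e-06). It was just under the limit and was called lower with edgeR (-1.08), with upper-quartile scaling (-1.07) and without BTSO replicate 1 (-1.08).

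Sugar genes changed in both directions. Of 99 genes of sucrose, trehalose and starch metabolism, 14 were higher and 6 lower, or 14.1% and 6.06%, beside 5.91% and 4.89% of all genes, with a median log2 difference of -0.02. With edgeR and with DESeq2 15 were higher and 12 lower. Sucrose-phosphate synthase, which makes sucrose, had 2 lower genes of 4. Sucrose-phosphate synthase 4 (Cs5g19060) had 5.02, 3.05 and 3.39 FPKM in TBO fruit, against 24.7, 17.3 and 24.7 FPKM in BTSO fruit (log2 difference -2.27, SE 0.22, limma adjusted p = 1.46e-08), and sucrose-phosphate synthase 1 (Cs7g05690) had a log2 difference of -1.47. All 4 genes of the enzyme had values below 0, between -2.27 and -0.48. In each the varieties did not overlap, as in 59.8% of all genes tested.

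Invertases, which split sucrose, had 3 higher genes and 1 lower gene of 9, beside 5.91% and 4.89% of all genes. The acid invertase (Cs5g09220), of the vacuolar type, had 10.4, 14.2 and 8.44 FPKM in TBO fruit, against 31.6, 75.9 and 101 FPKM in BTSO fruit (log2 difference -2.43, SE 0.41, limma adjusted p = 2.76e-05). The weaker Cs9g14590 had 7.56, 5.76 and 7.24 FPKM in TBO fruit, against 1.97, 2.06 and 1.07 FPKM in BTSO fruit (log2 difference 1.56, SE 0.30, limma adjusted p = 1.52e-04), and the insoluble, cell wall form Cs1g18220 was higher as well (1.52). Sucrose synthase, which splits sucrose reversibly, had 1 higher gene of 4 (Cs4g06850), with 138, 128 and 159.6 FPKM in TBO fruit, against 60.4, 64.6 and 64.9 FPKM in BTSO fruit (log2 difference 1.15, SE 0.12, limma adjusted p = 3.15e-08). The most abundant one, sucrose synthase 2 (Cs5g33470), had 894, 1061 and 855 FPKM in TBO fruit, against 1012, 734 and 781 FPKM in BTSO fruit (log2 difference 0.16, SE 0.18, limma adjusted p = 0.471), with overlapping varieties.

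Trehalose-phosphate genes, which set the level of a sugar signal, were higher in 4 of 12 and lower in 0, beside 5.91% and 4.89% of all genes. The phosphatase F gene (Cs5g09200) had 9.19, 8.75 and 11.5 FPKM in TBO fruit, against 1.21, 0.664 and 0.389 FPKM in BTSO fruit (log2 difference 2.64, SE 0.18, limma adjusted p = 3.74e-11), and phosphatase J (Cs1g01330) had a log2 difference of 1.45. Hexokinase-3-like (Cs2g30930, 1.27), which phosphorylates glucose, and beta-amylase 7 (orange1.1t00361, 1.39), of the family that degrades starch, were also higher. Among 14 sugar transporters, 1 was higher and 1 lower, both weak and near the limit, and neither call held when single libraries were left out. The ERD6-like 5 gene (Cs3g12480) was at 0.95 without TBO replicate 1 and 0.92 without TBO replicate 3, and polyol transporter 6 (Cs4g15770) was at -0.95 without BTSO replicate 1, -0.97 without TBO replicate 2 and -0.96 without TBO replicate 3.

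Cell wall genes were called in both directions. Of 32 pectin genes 2 were higher and 7 lower, or 6.25% and 21.9%, beside 5.91% and 4.89% of all genes, with a median of -0.09. Of 61 genes of cellulose, xyloglucan and expansin 8 were higher and 10 lower, or 13.1% and 16.4%, with a median of -0.17. With edgeR the lower genes numbered 11 in the pectin list and 18 in the other. Pectate lyase 5 (Cs7g09860), which cuts pectin chains, had 3.38, 2.86 and 3.68 FPKM in TBO fruit, against 37.9, 73.7 and 90.0 FPKM in BTSO fruit (log2 difference -3.90, SE 0.32, limma adjusted p = 8.91e-10). The BTSO libraries were unequal, with replicate 1 lowest, but all lay far above the TBO libraries. The polygalacturonase subunit JP650 (Cs7g08620) had 2.89, 1.43 and 1.49 FPKM in TBO fruit, against 13.99, 35.2 and 37.5 FPKM in BTSO fruit (log2 difference -3.26, SE 0.40, limma adjusted p = 4.39e-07), and BTSO replicate 1 was again the lowest of its variety. Pectinesterases, which remove methyl groups from pectin, made up the other 5 lower members, among them pectinesterase 63 (Cs4g06890, -2.77), Cs4g06630 (-2.54) and Cs3g14610 (-1.46).

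The higher pectin members were an inhibitor and pectinesterase 7 (Cs5g33420, 1.87). Polygalacturonase inhibitor (Cs7g18970), a wall protein that blocks pectin cleavage, had 837, 526 and 922 FPKM in TBO fruit, against 327, 325 and 304 FPKM in BTSO fruit (log2 difference 1.21, SE 0.20, limma adjusted p = 2.38e-05). A gene outside the list, which was matched on words of the descriptions alone, carries a pectinesterase entry in KEGG (orange1.1t00214). It had 126, 55.3 and 188 FPKM in TBO fruit, against 0.965, 0.486 and 3.00 FPKM in BTSO fruit (log2 difference 5.61, SE 0.56, limma adjusted p = 2.63e-08). Its TBO libraries differed among themselves, and replicate 2 was the lowest.

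The beta-D-xylosidases given here, of enzymes that trim xylan, were lower in TBO fruit. Beta-D-xylosidase 1 (Cs9g02570) had 3.94, 3.63 and 2.78 FPKM in TBO fruit, against 62.9, 25.5 and 33.2 FPKM in BTSO fruit (log2 difference -3.13, SE 0.30, limma adjusted p = 1.26e-08), and beta-D-xylosidase 5 (Cs8g08680) had a log2 difference of -2.80. Expansin-A4 (Cs6g06530), which loosens the wall, had 1.11, 0.907 and 0.968 FPKM in TBO fruit, against 8.46, 16.4 and 17.3 FPKM in BTSO fruit (log2 difference -2.85, SE 0.38, limma adjusted p = 1.36e-06). The 3 expansins called, of 61 genes in their list, were all lower. In the whole list 13.1% were higher and 16.4% lower, beside 5.91% and 4.89% of all genes. Xyloglucan endotransglucosylase/hydrolases (XTH), which cut and rejoin xyloglucan, were divided. XTH 10 (Cs8g03550) had 51.0, 34.1 and 54.2 FPKM in TBO fruit, against 8.72, 6.63 and 6.64 FPKM in BTSO fruit (log2 difference 2.49, SE 0.23, limma adjusted p = 9.82e-09) and Cs4g03200 was higher as well (1.44), while Cs8g15720 was lower (-1.98).

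**Figure D2:**
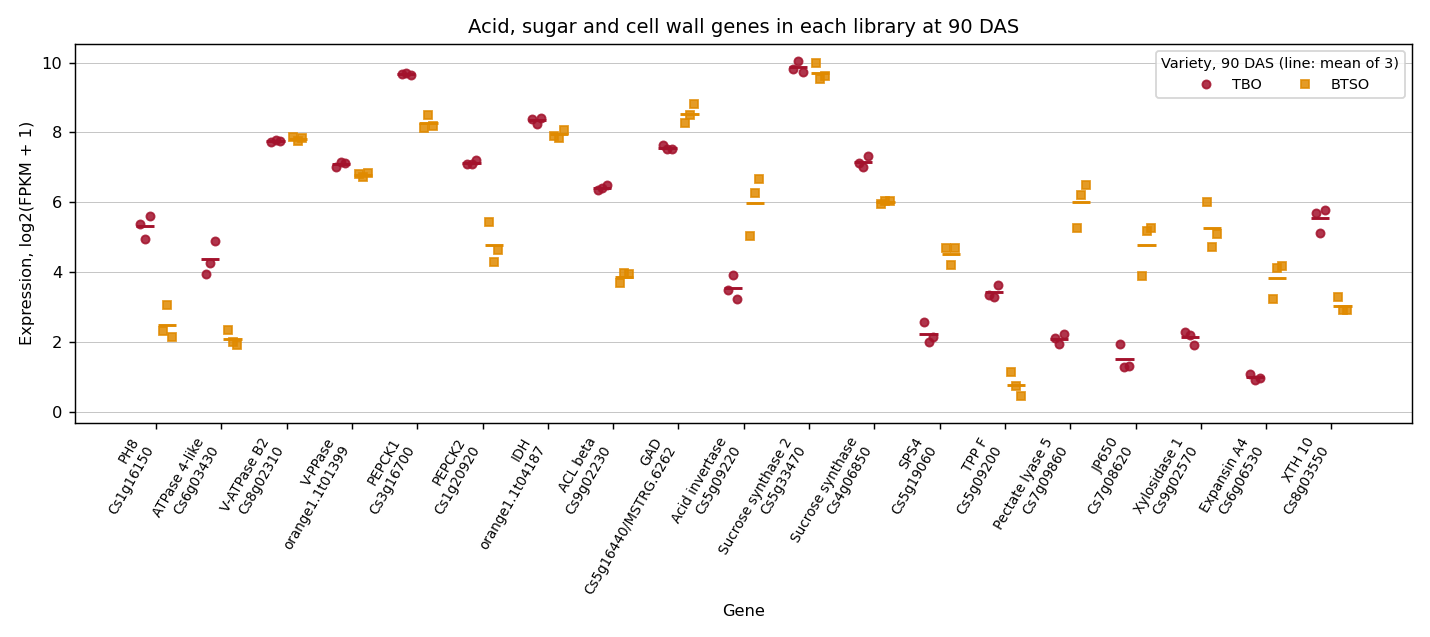
Expression of 19 genes of acidity, sugars and the cell wall in each library at 90 DAS, as log2(FPKM + 1), with TBO libraries as circles, BTSO libraries as squares and lines for the means of 3. PH8, both PEPCK genes and the beta chain of ATP-citrate lyase (ACL beta) are higher in every TBO library, V-ATPase B 2 and sucrose synthase 2 overlap, and acid invertase, pectate lyase 5, xylosidase 1 and expansin A4 are lower in every TBO library. IDH is isocitrate dehydrogenase, GAD glutamate decarboxylase, SPS4 sucrose-phosphate synthase 4 and TPP F trehalose-phosphate phosphatase F.

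Lignin synthesis is a side branch of the phenylpropanoid pathway, and glycosyltransferases attach sugars to many of its products. Of 66 lignin genes 6 were higher and 10 lower, or 9.09% and 15.2%, beside 5.91% and 4.89% of all genes. With edgeR 10 were higher and 15 lower. The list had a median of 0.01, which was -0.10 with edgeR and -0.08 with upper-quartile scaling. Among the 10 were methyltransferases of caffeic acid or caffeoyl-CoA and laccase-11-like (Cs1g24250), which couples lignin units and had 0.294, 0.184 and 0.167 FPKM in TBO fruit, against 7.46, 3.58 and 5.81 FPKM in BTSO fruit (log2 difference -2.40, SE 0.24, limma adjusted p = 2.63e-08). The largest positive difference was that of shikimate O-hydroxycinnamoyltransferase-like (Cs7g29080), with 5.35, 2.40 and 10.8 FPKM in TBO fruit, against 0, 0.0378 and 0.0856 FPKM in BTSO fruit (log2 difference 2.61, SE 0.33, limma adjusted p = 8.34e-07). Of 32 UDP-glycosyltransferases 1 was higher and 6 lower (3.12% and 18.8%). The abundant UDP-glycosyltransferase 76C2-like gene (Cs9g16640), of a family that in Arabidopsis acts on cytokinins, had 376, 375 and 311 FPKM in TBO fruit, against 767, 919.7 and 831 FPKM in BTSO fruit (log2 difference -1.25, SE 0.12, limma adjusted p = 2.34e-08), and its values did not overlap.

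Of 14 terpene synthases, which make the aroma hydrocarbons of citrus, 0 were higher and 4 lower, beside 5.91% and 4.89% of all genes. Valencene synthase (orange1.1t05635), for the sesquiterpene of orange aroma, had 12.9, 7.40 and 9.50 FPKM in TBO fruit, against 33.3, 36.7 and 33.9 FPKM in BTSO fruit (log2 difference -1.73, SE 0.19, limma adjusted p = 7.96e-08). The merged locus of germacrene D and beta-farnesene synthase-like genes (Cs5g12880, Cs5g12890 and Cs5g12900) had 53.6, 35.7 and 39.7 FPKM in TBO fruit, against 164.1, 183 and 195 FPKM in BTSO fruit (log2 difference -2.06, SE 0.20, limma adjusted p = 1.11e-08). The 2 limonene synthases, Cs3g04360 (-1.14) and Cs3g04170 (-1.105), were no longer called without BTSO replicate 1 (-0.88 for Cs3g04360 and -0.85 for Cs3g04170), and Cs3g04170 was also lost without TBO replicate 2 (-0.93). Of 23 genes of carotenoids and abscisic acid, 0 were higher and 2 lower (8.70%). Neoxanthin synthase (Cs6g18640), which makes a precursor of abscisic acid, had 4.49, 3.58 and 3.78 FPKM in TBO fruit, against 22.7, 35.3 and 31.5 FPKM in BTSO fruit (log2 difference -2.62, SE 0.30, limma adjusted p = 1.56e-07). Carotenoid cleavage dioxygenase 4 (Cs7g14820), which breaks carotenoids down, had 1.24, 0.725 and 1.32 FPKM in TBO fruit, against 7.75, 7.87 and 8.54 FPKM in BTSO fruit (log2 difference -2.12, SE 0.19, limma adjusted p = 5.17e-09). In both, no TBO library reached a BTSO library.

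Hormone genes were called in both directions. In the auxin list of 40 genes, 4 were higher and 1 lower, and with edgeR 5 and 3. The limma shares were 10% and 2.5%, beside 5.91% and 4.89% of all genes. The GH3 gene Cs8g04610, an amido synthetase that inactivates auxin by joining it to amino acids, had 33.0, 24.8 and 31.4 FPKM in TBO fruit, against 1.56, 1.13 and 1.32 FPKM in BTSO fruit (log2 difference 3.71, SE 0.23, limma adjusted p = 1.21e-11). In the gibberellin list of 12, 2 were higher and 3 lower, or 16.7% and 25%, beside 5.91% and 4.89% of all genes, with a median of -0.63. With edgeR 6 were lower and the median was -1.41. Gibberellin-regulated protein 1 (Cs3g26100), a small secreted peptide, was abundant, with 1832, 1584 and 2216 FPKM in TBO fruit, against 693, 646 and 608 FPKM in BTSO fruit (log2 difference 1.52, SE 0.26, limma adjusted p = 3.97e-05). Gibberellin-regulated protein 4 (Cs6g21260) went the other way, with 4.53, 4.17 and 3.16 FPKM in TBO fruit, against 16.9, 56.4 and 53.5 FPKM in BTSO fruit (log2 difference -2.96, SE 0.40, limma adjusted p = 1.80e-06), and BTSO replicate 1 was low within its variety. Of 17 jasmonate genes 3 were higher, the first of them TIFY 10A-like (Cs1g17210), a repressor of jasmonate responses, with 57.8, 53.8 and 55.2 FPKM in TBO fruit, against 21.4, 10.6 and 12.9 FPKM in BTSO fruit (log2 difference 1.88, SE 0.33, limma adjusted p = 5.11e-05). The ethylene list had no called member among 15. Its words missed an undescribed gene with a KEGG entry for ACC oxidase, the last enzyme of ethylene synthesis (Cs2g20590), which had 29.1, 18.0 and 37.8 FPKM in TBO fruit, against 0.379, 0.847 and 1.11 FPKM in BTSO fruit (log2 difference 4.003, SE 0.64, limma adjusted p = 1.58e-05) and was named after its values had been seen.

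Chitinases and pathogenesis-related proteins, which act against fungi and other pathogens, included many higher genes, whereas of 216 disease resistance genes 9 were higher (4.17%, beside 5.91% of all genes) and 10 lower. Of 23 chitinases and pathogenesis-related proteins 13 were higher and 1 lower in TBO fruit, with a median log2 difference of 1.06, against 0.08 over all genes. This list was drawn up after its values had been seen, so its count is a description. The summed FPKM of the list was 1140.5, 679.8 and 1022 in the TBO libraries, against 350.8, 424.0 and 315.1 in the BTSO libraries. TBO replicate 2 was the lowest TBO library in all 13 higher members, and without it 13 members were higher as well. Without TBO replicate 1 the count was 10, and with DESeq2 it was 9. Acidic endochitinase-like (Cs9g14710), which cleaves fungal chitin, had 289, 158 and 229 FPKM in TBO fruit, against 22.4, 37.6 and 32.6 FPKM in BTSO fruit (log2 difference 2.81, SE 0.42, limma adjusted p = 6.24e-06), and PR-4A (Cs8g13740), a chitin-binding protein, had 266, 132 and 219 FPKM in TBO fruit, against 31.8, 23.7 and 28.6 FPKM in BTSO fruit (log2 difference 2.78, SE 0.51, limma adjusted p = 8.60e-05). The varieties were separate in both.

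The hevein-like genes, of chitin-binding proteins, were near 0 in BTSO fruit. Hevein-like preproprotein (Cs8g13710) had 18.7, 8.17 and 30.3 FPKM in TBO fruit, against 0, 0.123 and 0.736 FPKM in BTSO fruit (log2 difference 3.83, SE 0.48, limma adjusted p = 6.07e-07), and its neighbour by identifier Cs8g13730 had a log2 difference of 2.95. The miraculin-like genes orange1.1t04806 and orange1.1t04805, members of a protease inhibitor family, were alike. The first had 25.2, 7.05 and 27.2 FPKM in TBO fruit, against 0.158, 0.264 and 0.560 FPKM in BTSO fruit (log2 difference 3.78, SE 0.36, limma adjusted p = 1.27e-08), and the second 15.1, 4.01 and 14.4 FPKM in TBO fruit, against 0.240, 0.484 and 0.761 FPKM in BTSO fruit (log2 difference 2.86, SE 0.30, limma adjusted p = 4.10e-08). In both, TBO replicate 2 was well below the other TBO libraries. Chitinase CHI1 (Cs5g21860) had 97.7, 28.6 and 43.5 FPKM in TBO fruit, against 15.5, 29.6 and 9.61 FPKM in BTSO fruit (log2 difference 1.53, SE 0.56, limma adjusted p = 0.0258). Its varieties overlapped, and the call was lost in limma without TBO replicate 1 (adjusted p = 0.154), BTSO replicate 1 (adjusted p = 0.0552) or BTSO replicate 3 (adjusted p = 0.128). The activator of pathogenesis-related genes PTI5 (Cs2g05280) had 37.7, 23.3 and 43.6 FPKM in TBO fruit, against 7.54, 8.49 and 10.3 FPKM in BTSO fruit (log2 difference 1.84, SE 0.39, limma adjusted p = 3.47e-04).

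The GST family, which joins glutathione to many compounds, had 15 higher and 1 lower gene of 45. These were 33.3% and 2.22%, beside 5.91% and 4.89% of all genes. The median was 0.27, against 0.08 over all genes. Besides the pigment GST, 9 of the higher members were annotated only as probable GST or GST 23-like with neighbouring identifiers, so that reads may have been split among near-identical copies. The largest of these was orange1.1t03456, with 12.7, 9.30 and 26.1 FPKM in TBO fruit, against 0.271, 0.181 and 0.0819 FPKM in BTSO fruit (log2 difference 3.74, SE 0.29, limma adjusted p = 4.19e-10). Next came orange1.1t03632, with 19.3, 8.94 and 23.6 FPKM in TBO fruit, against 0.725, 0.650 and 0.376 FPKM in BTSO fruit (log2 difference 3.43, SE 0.32, limma adjusted p = 1.00e-08). Replicate 2 was the lowest TBO library in all 15. Over the family the summed FPKM was 2009, 1589.6 and 1987 in TBO fruit, against 1215, 1592 and 1723 in BTSO fruit, and these sums overlapped.

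Of 15 WRKY genes, transcription factors of stress and defence, 6 were higher and 1 lower. Their shares were 40% and 6.67%, beside 5.91% and 4.89% of all genes. The median was 0.76, against 0.08. WRKY31 (Cs2g02790) had 59.2, 51.4 and 62.2 FPKM in TBO fruit, against 11.5, 13.4 and 11.2 FPKM in BTSO fruit (log2 difference 2.17, SE 0.19, limma adjusted p = 4.42e-09), and WRKY22-like (Cs5g03010) had 3.97, 1.97 and 4.67 FPKM in TBO fruit, against 0.113, 0 and 0.0881 FPKM in BTSO fruit (log2 difference 2.04, SE 0.17, limma adjusted p = 1.40e-09). The exception was WRKY47 (orange1.1t01779), with 10.8, 8.48 and 9.22 FPKM in TBO fruit, against 22.1, 32.2 and 37.7 FPKM in BTSO fruit (log2 difference -1.56, SE 0.25, limma adjusted p = 1.30e-05). Peroxidases and scavenging enzymes were called in both directions, 5 each of 26, or 19.2% each. Peroxidase 55-like (Cs2g25450) had 275, 176 and 198 FPKM in TBO fruit, against 121, 71.8 and 62.1 FPKM in BTSO fruit (log2 difference 1.37, SE 0.24, limma adjusted p = 4.33e-05), whereas peroxidase 42 (Cs2g03110) had 3.00, 1.61 and 3.13 FPKM in TBO fruit, against 18.0, 24.5 and 26.8 FPKM in BTSO fruit (log2 difference -2.76, SE 0.20, limma adjusted p = 1.65e-10). A cysteine proteinase annotated as induced by low temperature (Cs2g04770) had 401, 348 and 460.3 FPKM in TBO fruit, against 34.9, 45.2 and 22.4 FPKM in BTSO fruit (log2 difference 3.57, SE 0.26, limma adjusted p = 1.87e-10), a ratio of the means of 11.8.

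**Figure D3:**
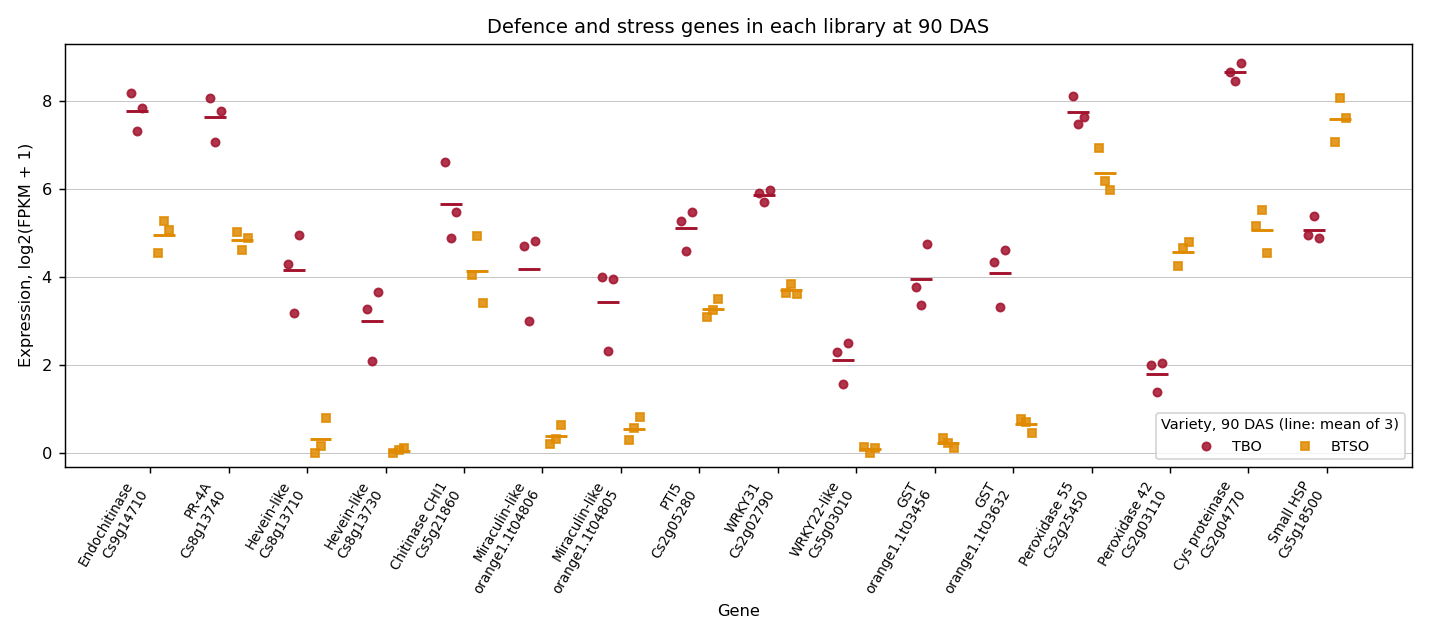
Expression of 16 defence and stress genes in each library at 90 DAS, as log2(FPKM + 1), with TBO libraries as circles, BTSO libraries as squares and lines for the means of 3. In most higher genes the lowest circle is TBO replicate 2. Chitinase CHI1 overlaps between the varieties, and peroxidase 42 and a small heat shock protein (HSP) gene are lower in TBO fruit.

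Some of the most abundant transcripts also differed. The 10 most abundant genes of a library held 6.39% ± 0.142 of all FPKM in TBO fruit and 11.4% ± 0.743 in BTSO fruit (SD, n = 3 each, two-sided exact permutation test, p = 0.1, the smallest value that 3 against 3 libraries can give). The most abundant transcript of BTSO fruit was a metallothionein-like protein (Cs1g07330), a small cysteine-rich metal-binding protein, with 3024, 2737 and 2896 FPKM in TBO fruit, against 16976, 14292 and 14870.5 FPKM in BTSO fruit (log2 difference -2.41, SE 0.15, limma adjusted p = 1.39e-11). Protein SRC1-like (Cs5g27060), known from soybean as induced by cold, had 1801, 1646 and 1822 FPKM in TBO fruit, against 2981, 6332 and 5219.8 FPKM in BTSO fruit (log2 difference -1.40, SE 0.24, limma adjusted p = 3.31e-05). A polyubiquitin (Cs6g11770) was higher in TBO fruit, with 4327, 4366 and 4198 FPKM in TBO fruit, against 2806, 1831 and 1678 FPKM in BTSO fruit (log2 difference 1.07, SE 0.17, limma adjusted p = 1.54e-05), a call lost without BTSO replicate 2 (0.98) or 3 (0.92) and with upper-quartile scaling (0.94) or edgeR (0.91). The assembled locus MSTRG.13300, with no reference name, had 4.94, 862 and 1612 FPKM in TBO fruit, against 2919, 5592 and 3648 FPKM in BTSO fruit (log2 difference -4.27, SE 1.12, limma adjusted p = 0.00261). TBO replicate 1 was far below the other TBO libraries, and when only the 6 libraries of 90 DAS entered the fit it was not called (limma adjusted p = 0.108).

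Other strong differences fell outside the lists. The gene orange1.1t03024, with no function in its description, had 1019, 423 and 711 FPKM in TBO fruit, against 8.35, 6.17 and 5.76 FPKM in BTSO fruit (log2 difference 6.46, SE 0.67, limma adjusted p = 3.95e-08), and Cs3g15770, with the gene ontology term of heme binding, had 65.5, 36.8 and 49.5 FPKM in TBO fruit, against 0.954, 0.848 and 0.369 FPKM in BTSO fruit (log2 difference 4.88, SE 0.29, limma adjusted p = 5.04e-12). The secreted glycoprotein EP1-like gene (Cs5g12420), known from carrot epidermis, had 88.0, 38.5 and 137 FPKM in TBO fruit, against 2.49, 2.33 and 1.35 FPKM in BTSO fruit (log2 difference 4.70, SE 0.32, limma adjusted p = 4.18e-11). All 3 had their lowest TBO value in replicate 2. Their varieties did not overlap, which was a condition for naming them. On the lower side, the undescribed gene Cs9g04500 had 6.18, 2.27 and 3.95 FPKM in TBO fruit, against 49.7, 91.7 and 80.6 FPKM in BTSO fruit (log2 difference -3.90, SE 0.30, limma adjusted p = 3.95e-10). Cs5g06570 and Cs4g18790, both with gene ontology terms of cysteine-type endopeptidases, had log2 differences of -3.48 and -3.07. Cs4g18790 was the more abundant, with 189, 152 and 151 FPKM in TBO fruit, against 798.6, 1976 and 1637 FPKM in BTSO fruit. Enolase-phosphatase E1 (Cs5g16220), of the methionine salvage pathway, had 1.03, 0.351 and 0.279 FPKM in TBO fruit, against 7.00, 12.8 and 17.0 FPKM in BTSO fruit (log2 difference -3.05, SE 0.32, limma adjusted p = 4.74e-08), and Cs8g20310, with a KEGG entry for a fatty acid desaturase, had a log2 difference of -3.16. The merged locus of a vinorine synthase-like acyltransferase (Cs6g12870 and Cs6g12880) had 31.8, 29.2 and 28.7 FPKM in TBO fruit, against 163, 280.4 and 315 FPKM in BTSO fruit (log2 difference -2.98, SE 0.27, limma adjusted p = 5.17e-09).

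More genes were listed above 0 in TBO libraries. An FPKM above 0 was listed for 20410.0 ± 190 genes in TBO libraries and 19939 ± 31.7 in BTSO libraries (SD, n = 3 each, two-sided exact permutation test, p = 0.1), and at 1 FPKM or more the mean surplus was 224 genes. Detection can depend on depth, and the libraries were not brought to equal depth. Estimated counts summed to 71443367, 64163001 and 64101715 in TBO libraries, against 55922797, 61531308 and 68198074 in BTSO libraries. These estimated counts need not equal numbers of reads. In the same order, the genes listed above 0 numbered 20597, 20218 and 20415 in TBO libraries, against 19943, 19906 and 19969 in BTSO libraries. The part of depth in the surplus and in the genes listed at 0 below was not tested. Of all genes in the table, 1308 were listed at 0 in the 3 BTSO libraries and 819 in the 3 TBO libraries, and 514 and 286 of them were at 0 on every day of that variety. A mean of at least 1 FPKM in TBO fruit was reached by 36 of the 1308, and a mean of at least 1 FPKM in BTSO fruit by 23 of the 819, so that most of these genes were weak in both varieties. Phenylalanine N-monooxygenase-like (orange1.1t01456), of a P450 type that starts amino acid oximes, was at 7.91, 3.59 and 18.0 FPKM in TBO fruit and listed at 0 in BTSO fruit. Conversely, Cs5g18720, with a KEGG entry for pyruvate dehydrogenase E1 beta, was listed at 0 in TBO fruit and at 7.10, 5.70 and 7.23 FPKM in BTSO fruit. The pyruvate dehydrogenase E1 beta gene Cs8g06950 was at 22.03 FPKM in TBO replicate 3 and listed at 0 in the other 5 libraries.

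The difference between the varieties at 90 DAS was then set against that of the earlier days. Called genes numbered 1293 on day 0, 1471 on day 15, 1781 on day 30, 1879 on day 60 and 1790 on day 90. A gene was called against earlier days where the adjusted p-value was under 0.05 and the log2 contrast over 1 in either direction. In the same limma fit, 246 genes (1.48%) were called above the mean of the 4 earlier days and 134 (0.808%) below it. With edgeR on the estimated counts these numbers were 215 and 237. Of the 246, 201 were also called higher at 90 DAS and 4 lower, and of the 134, 75 were called lower and 5 higher. Against 60 DAS alone, 46 genes (0.277%) were called above and 97 (0.585%) below, together 0.863%, and with edgeR 15 and 82. This smaller count rested on single libraries, being 82 without BTSO replicate 2, 86 without TBO replicate 1 and 87 without TBO replicate 3. Of the 143 genes, 61 were also called in the same direction against the mean of the earlier days.

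In the pigment pathway, F3H (Cs1g25280) had log2 differences of 2.78, 4.58, 5.75 and 6.54 on days 0, 15, 30 and 60, so that the value at 90 DAS exceeded their mean by 1.92 ± 0.23 (SE, limma adjusted p = 1.01e-05). Its TBO level was 140.0 ± 15.0 FPKM at 0 DAS and 838 ± 71.3 FPKM at 90 DAS (SD, n = 3 each). The shikimate pathway gene Cs3g18030 exceeded the earlier mean by 1.33 ± 0.28 (SE, limma adjusted p = 0.00351). Its log2 differences were 1.55, 3.11, 3.47 and 4.46 on days 0, 15, 30 and 60. The value at 90 DAS was thus only 0.02 ± 0.36 above that at 60 DAS (SE, limma adjusted p = 0.984). In the GST family 11 of 45 members were called above their earlier mean and 0 below, against 1.48% and 0.808% of all genes. In the chitinase and pathogenesis-related list 9 of 23 were called above and 1 below. GST (orange1.1t03456) was at 0.998 ± 0.880 FPKM in TBO fruit at 60 DAS and 16.0 ± 8.86 FPKM at 90 DAS, and at 0 and 0.178 ± 0.0947 FPKM in BTSO fruit. Its difference at 90 DAS exceeded that of 60 DAS by 2.83 ± 0.41 (SE, limma adjusted p = 6.37e-04). Miraculin-like (orange1.1t04806) was at 3.59 ± 3.45 FPKM at 60 DAS and 19.8 ± 11.1 FPKM at 90 DAS in TBO fruit, and exceeded the 60 DAS difference by 1.94 ± 0.51 (SE, limma adjusted p = 0.0455).

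A few late genes had already differed at 60 DAS. The gene with the pectinesterase entry (orange1.1t00214) had TBO levels of 0.323 ± 0.0397 FPKM at 30 DAS, 130.3 ± 79.8 FPKM at 60 DAS and 123 ± 66.5 FPKM at 90 DAS. EP1-like (Cs5g12420) was at 0.940 ± 0.617, 21.9 ± 7.63 and 87.7 ± 49.1 FPKM on these days. Cs9g03630, an undescribed gene with gene ontology terms of abscisic acid signalling, changed its direction. It was lower in TBO fruit at 0 DAS, with 1.11 ± 0.424 FPKM in TBO fruit and 28.5 ± 16.6 FPKM in BTSO fruit, and higher at 90 DAS, with 243, 112 and 319 FPKM in TBO fruit, against 8.74, 27.1 and 63.0 FPKM in BTSO fruit. Its call at 90 DAS (log2 difference 2.99, limma adjusted p = 0.00864) was lost in limma without BTSO replicate 1 (adjusted p = 0.0572).

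Other genes had a smaller or reversed difference at 90 DAS. Cs8g10300, without description, was at 29.8 ± 4.07 FPKM at 60 DAS and 3.00 ± 0.799 FPKM at 90 DAS in TBO fruit, and its difference minus that of 60 DAS was -2.60 ± 0.55 (SE, limma adjusted p = 0.0135). Protein phosphatase 2C 75 (Cs9g16370), of a family that restrains abscisic acid signalling, was at 3.17 ± 0.274 FPKM at 60 DAS and 0.550 ± 0.225 FPKM at 90 DAS in TBO fruit, and at 0.224 ± 0.271 and 2.59 ± 2.29 FPKM in BTSO fruit on these days. It was called lower at 90 DAS, but not without BTSO replicate 1 (-0.55) or TBO replicate 2 (-0.94). A cytochrome P450 gene (Cs1g22230) was at 32.1 ± 2.40 FPKM in TBO fruit at 60 DAS. At 90 DAS it had 4.45, 29.2 and 0.900 FPKM in TBO fruit, against 33.0, 33.7 and 30.8 FPKM in BTSO fruit, so that 2 TBO libraries were low and TBO replicate 2 lay close to the BTSO libraries. When only the 6 libraries of 90 DAS entered the fit it was not called (limma adjusted p = 0.066).

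**Figure D4:**
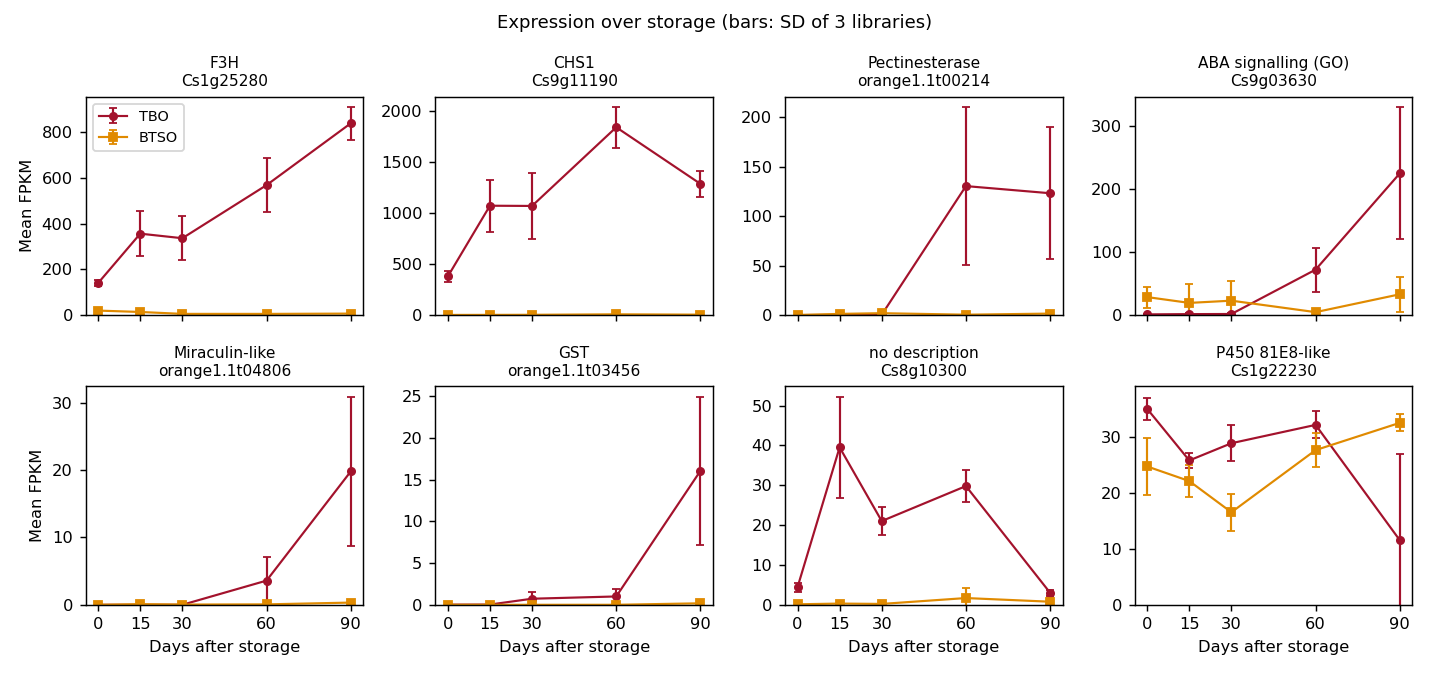
Mean FPKM of 8 genes over storage in TBO (circles) and BTSO (squares), with bars for the SD of 3 libraries, plotted against days after storage. F3H is highest in TBO fruit at 90 DAS, the pectinesterase gene is high in TBO fruit from 60 DAS, the miraculin-like and GST genes are highest at 90 DAS, and Cs8g10300 and the P450 gene are low in TBO fruit at 90 DAS.

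**Figure D5:**
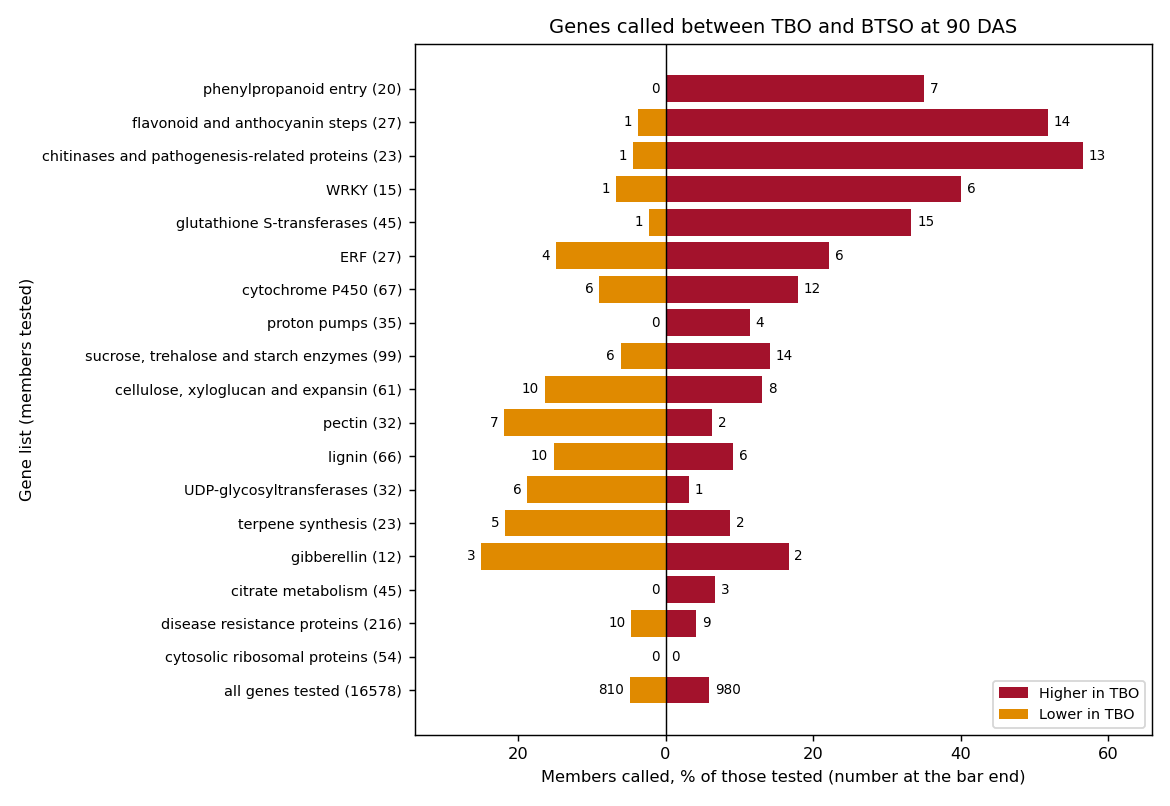
Percent of the tested members of 18 gene lists, and of all 16578 genes, called higher (right) or lower (left) in TBO fruit at 90 DAS, with the number of members at each bar end. The flavonoid and the chitinase lists reach the highest shares of higher members, against 5.91% over all genes, while pectin, terpene synthesis and UDP-glycosyltransferases have more lower than higher members.

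The tissue was checked with marker lists. Juice sac markers (vacuolar pumps, vacuolar invertase and sucrose synthase) summed to between 1749 and 1907 FPKM in TBO libraries and between 1581 and 1797 FPKM in BTSO libraries, with overlap. Green tissue markers, of which 17 of 20 passed the filter and 0 were called, summed to between 98.5 and 106 FPKM in TBO fruit and between 75.1 and 95.6 FPKM in BTSO fruit, without overlap. Seed markers (8 of 13 passed) summed to between 473 and 937 FPKM in TBO fruit and between 546 and 678 FPKM in BTSO fruit, nearly all of it 1 merged late embryogenesis abundant locus, and oleosin 1 (orange1.1t03751), of the seed oil body, averaged 12.7 FPKM in TBO fruit and 20.9 FPKM in BTSO fruit. Vascular markers (11 of 27 passed) summed to between 37.8 and 53.6 FPKM in TBO fruit and between 36.5 and 46.4 FPKM in BTSO fruit. Markers of epidermis and segment membrane (14 of 25 passed) summed to between 153 and 159 FPKM in TBO fruit and between 117 and 129 FPKM in BTSO fruit without overlap, with 0 called higher and 1 lower. The part of these tissues in the results was not tested.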

How the data were processed

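Juice sac RNA of 10 groups (2 varieties at 5 storage days, 3 libraries each) was sequenced on an Illumina instrument. Per the labels, the submitters named Bowtie 0.12.2 (used in the study to remove ribosomal reads), HISAT2 2.0 and StringTie 1.3.0, and the authors deposited a table of FPKM (per transcript length and library size) and of estimated counts for each gene and library. The build named in the submitters' notes is one of mouse, so the genome release of the orange is taken as not given in the sources used here. The estimated counts that the authors deposited need not equal numbers of reads, and were rounded before edgeR and DESeq2. Estimated counts of the 6 libraries summed to between 55922797 and 71443367, and weakly expressed genes are the least precise.

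FPKM were tested as log2(FPKM + 1) with limma 3.58.1 (trend) in R 4.3.3, with a mean for each of the 10 groups over all 30 libraries, so that the groups shared one estimate of the spread. Genes had to reach 1 FPKM in 3 or more libraries. Contrasts were TBO minus BTSO at 90 DAS, this difference minus the mean of those at 0, 15, 30 and 60 DAS, and minus that at 60 DAS alone. P-values were adjusted by Benjamini-Hochberg over all genes tested, and calls needed an adjusted p-value under 0.05 and a log2 value over 1 in size. Values of whole libraries were compared by two-sided exact permutation tests. The fits were checked on simulated data. Alternatives were a pseudocount of 0.1, other filters, the 6 libraries alone, upper-quartile and quantile scaling, edgeR 4.0.16 and DESeq2 1.42.0 on estimated counts, a replicate block, ratios of mean FPKM, unadjusted p-values and leaving out each library.

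Named genes were the genes the study names with an ID, in each direction the 12 described, called genes with the largest difference, no overlap and a mean of 10 FPKM or more, in each list the called members with the largest differences and the 2 most abundant, in each direction 6 genes listed at 0 in one variety and 6 genes with the largest contrast against earlier days, and the 5 most abundant genes of each variety. A further 62 genes were named after their values had been seen. Lists were matched on words of the descriptions, and some of them also on KEGG entries of genes whose description names no function. The comparison, its members and the lists were chosen with earlier results of these data known. The table holds no sequences or coordinates that were used here.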

Additional observations from a re-analysis of the deposited data

Results flagged for a closer look

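Differences between the varieties that were themselves different at 90 DAS are listed here with their values, from contrasts in the limma fit. The variety difference at 90 DAS was called different from the mean of the earlier days in 380 genes, and from that at 60 DAS in 143 genes. Among the pathway and structural genes, the departure from the earlier mean was 1.48 in Cs7g20780, 1.92 in F3H (Cs1g25280) and 1.33 in the shikimate pathway gene Cs3g18030. Against 60 DAS alone, their values were 0.55, 0.29 and 0.02, none of them called. The departure from the earlier mean was 4.32 in the pectinesterase entry orange1.1t00214, 3.58 in the EP1-like gene Cs5g12420 and 4.03 in Cs9g03630.

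Genes whose difference at 90 DAS was below the earlier mean included pectate lyase 5 (Cs7g09860), with -1.70, Cs9g04500, with -1.24, the cysteine endopeptidase gene Cs5g06570, with -1.87, the desaturase entry Cs8g20310, with -2.15, and Cs9g05340, with -2.36. The P450 gene Cs1g22230 was at -2.73 and orange1.1t03325 at -2.18.

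Some genes departed from both references. They included Cs3g01585, with 3.98 against the earlier mean and 3.69 against 60 DAS, miraculin-like (orange1.1t04806), with 3.36 and 1.94, and GST (orange1.1t03456), with 3.32 and 2.83. In the other direction were protein phosphatase 2C 75 (Cs9g16370), with -2.76 and -2.82, Cs8g10300, with -2.52 and -2.60, and Cs1g18540, with -2.22 and -3.28.

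Several of these did not hold in every setting. On estimated counts, Cs7g20780 was at -1.06 with edgeR and -0.86 with DESeq2, opposite in sign to its FPKM value, and orange1.1t03456 was at -0.01 with edgeR, both uncalled. The miraculin-like gene was uncalled with edgeR and DESeq2, and Cs1g22230 and Cs1g18540 with edgeR. Leaving out single libraries ended the calls of Cs9g03630 (BTSO replicate 1, TBO replicate 3), Cs1g18540 (BTSO replicate 1, TBO replicates 1 and 3) and Cs9g04500 (BTSO replicates 2 and 3, TBO replicates 2 and 3). Groups of 3 libraries are too small to be searched for single libraries that stand apart.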

How the results depend on the processing

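The number of genes called at 90 DAS was 1790, and 1657 to 2092 when single libraries were left out. It was 3062 with edgeR without a filter and 2766 by ratios of mean FPKM, and between 1720 and 2675 in the other alternatives. Of the 1790 calls, 1579 were kept with upper-quartile scaling, 1643 with quantile normalization, 1633 with edgeR and 1633 with DESeq2. Against the mean of earlier days 380 genes were called, 289 to 450 when single libraries were left out and 571 with DESeq2. Against 60 DAS 143 genes were called, 82 to 197 when single libraries were left out, 88 with edgeR without a filter, 248 with DESeq2 and 360 without adjustment of p. Deviations from the mean of each variety correlated across genes with r of -0.051, -0.074 and 0.063 between same-numbered libraries of the varieties. Between libraries of different number, r lay between -0.088 and 0.126. With 3 libraries per variety, these values cannot decide whether the replicate numbers pair the libraries. A replicate block gave 1793, 376 and 92 called genes in the 3 comparisons. The surplus of detected genes in TBO libraries, 471 on average, was 224 when an FPKM of 1 was required and 377 to 567 when single libraries were left out, and the difference in the share of the 10 most abundant genes, -5.00 percentage points, was -5.22 to -4.58. Of 244 named genes 169 were called, 31 of these lost the call in some alternative, 22 of them when a library was left out, and 0 changed sign in the 90 DAS comparison. The 3 libraries per variety limit the precision, as do the estimated counts, which need not equal numbers of reads. The cause of these changes was not tested.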

Other observations

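Gene groups outside the report were described at 90 DAS in the same way. Among 42 heat shock genes, chaperones that hold unfolded proteins, 1 was higher and 3 were lower in TBO fruit. These were 2.38% and 7.14%, beside 5.91% and 4.89% of all genes tested. In 6 of the 42 the variety difference was called below the mean of the earlier days, beside 0.808% of all genes. The small heat shock protein gene Cs5g18500 had 29.8, 40.9 and 28.7 FPKM in TBO fruit, against 133, 268 and 194 FPKM in BTSO fruit (log2 difference -2.50, SE 0.19, limma adjusted p = 2.28e-10), and the class I gene Cs6g07320 had 156, 115 and 125 FPKM in TBO fruit, against 209, 548 and 408 FPKM in BTSO fruit (log2 difference -1.46, SE 0.24, limma adjusted p = 2.37e-05). In both, BTSO replicate 1 was the lowest of its variety. The median log2 difference of the 42 genes was 0.03 and was -0.06 with upper-quartile scaling and -0.08 with edgeR, so that its sign depended on the scaling, and the 1 member called higher was not called with upper-quartile scaling or edgeR. Of 54 cytosolic ribosomal proteins, 0 were called in limma, and the median was -0.20. Of 29 respiratory chain genes 1 was lower and 0 higher, with a median of -0.36.

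Transporters and P450 enzymes were called in both directions. Of 76 transporters of the ABC and MATE families 7 were higher and 4 lower. These were 9.21% and 5.26%, near the 5.91% and 4.89% of all genes. An ABC transporter C family member 2-like locus (Cs2g09545 and Cs2g09550), of the family that carries conjugates into the vacuole, had 15.1, 15.9 and 16.2 FPKM in TBO fruit, against 4.09, 3.52 and 3.38 FPKM in BTSO fruit (log2 difference 1.85, SE 0.18, limma adjusted p = 1.11e-08). The MATE-type gene DETOXIFICATION 27-like (Cs1g20120) had 48.0, 48.4 and 49.0 FPKM in TBO fruit, against 19.2, 15.5 and 14.4 FPKM in BTSO fruit (log2 difference 1.52, SE 0.16, limma adjusted p = 4.97e-08). The G family gene Cs6g05280, of the half-size exporters at the cell surface, had 5.26, 3.69 and 2.80 FPKM in TBO fruit, against 14.9, 26.3 and 30.2 FPKM in BTSO fruit (log2 difference -2.31, SE 0.27, limma adjusted p = 2.03e-07). Of 67 cytochrome P450 genes 12 were higher and 6 lower (17.9% and 8.96%), and with edgeR 14 and 10. In 10 of the 12, TBO replicate 2 was the lowest TBO library.

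Regulators outside the pigment pathway also differed. RAP2-7 (Cs8g17390), an AP2-type repressor of flowering in Arabidopsis, had 12.4, 13.9 and 14.5 FPKM in TBO fruit, against 2.22, 1.86 and 1.62 FPKM in BTSO fruit (log2 difference 2.33, SE 0.13, limma adjusted p = 1.92e-12), and NAC domain protein 73 (Cs2g05490) had 30.2, 29.7 and 34.5 FPKM in TBO fruit, against 12.01, 5.25 and 5.54 FPKM in BTSO fruit (log2 difference 2.00, SE 0.32, limma adjusted p = 1.51e-05). Of 27 ethylene response factors 6 were higher and 4 lower (22.2% and 14.8%), but with edgeR and with DESeq2 4 and 6. The NAC list of 28 genes had 3 higher and 1 lower (10.7% and 3.57%). Of 216 disease resistance genes 9 were higher and 10 lower, or 4.17% and 4.63%, beside 5.91% and 4.89% of all genes tested, and with edgeR 13 were higher and 24 lower. The disease resistance gene Cs3g07940, RPS2-like, had 1.78, 2.07 and 1.94 FPKM in TBO fruit, against 10.6, 10.3 and 11.1 FPKM in BTSO fruit (log2 difference -1.99, SE 0.11, limma adjusted p = 1.81e-12). The list of retrotransposon proteins, with 15 genes tested, was matched on words of the descriptions. The RICESLEEPER-like gene Cs1g02260 in it was listed at 0 in all TBO libraries and had 4.40, 2.96 and 3.52 FPKM in BTSO fruit. Whether it belongs to a retrotransposon was not tested. Of 43 proteases 3 were higher and 5 lower (6.98% and 11.6%), and with edgeR 4 and 11. Among the 5 was subtilisin SBT1.7 (Cs3g15800), with 16.4, 13.7 and 15.7 FPKM in TBO fruit, against 50.8, 54.2 and 53.6 FPKM in BTSO fruit (log2 difference -1.73, SE 0.17, limma adjusted p = 2.36e-08).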
